A study of Mus musculus with 6 samples.

Results

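The complement and coagulation factors described here are 40 genes for plasma proteins of complement, blood clotting and clot breakdown, with 1 receptor. They were taken as a list, which was chosen with earlier results of these data known. All 40 had a probe on the array, of 22911 genes that could be named there, through 52 probes whose RefSeq accession belongs to a member. The brightest probe stood for each gene. Liver RNA came from 6 male mice, 12 weeks old when the feeding began, and each mouse gave 1 array. In the control group, 3 mice received regular granulated chow, and in the soy group 3 mice received chow of which 25% was soy bean, for 4 weeks. The strain is not given in the sources used here, and the animals are labelled only as replicates of their diet, with no other treatment named. The arrays were 1-colour Agilent mouse expression arrays, and the level of a gene is the log2 of its normalized spot intensity, so that a difference of 1 is a doubling. Each member was compared between soy and control in a limma fit over all 56605 probes, with p-values adjusted over all of them by the Benjamini-Hochberg method. These p-values measure only the spread between these samples. The 6 arrays, on 3 slides, limit the precision: control 1, control 2 and soy 1 shared slide 1, soy 2 lay alone on slide 2, and control 3 and soy 3 shared slide 3.

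Complement is a chain of plasma proteases that tags particles through C3 and can end in a pore built from the terminal components. Clotting is a second chain, in which vitamin K dependent proteases activate each other until thrombin turns fibrinogen into fibrin, and plasmin dissolves the clot again. Hepatocytes make most of these proteins and release them into the blood, and several of the genes respond to inflammation through interleukin-6.

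None of the 40 members passed in limma, where passing takes both an adjusted p under 0.05 and a fold of over 1.5 or less than 0.66, whereas 0.35% of all probes did. No further probe of a member passed either. At an unadjusted p under 0.05 limma gave 6 members, beside 11.5% of all probes and 18.1% of the probes that were well above background on all 6 arrays. Of these 6, 1 was higher in soy (5.34% of all probes) and 5 were lower (6.14% of all probes). The count of 6 became 2 without control 2, 4 without control 3 and 10 without soy 3. It was 3 with the processed signal or with a smaller offset in the background correction. It was 8 with a shift to the 75th percentile or with replicate number as a block. With eBayes trend and robust settings, or with the probes of a gene averaged, it was 9. The 3 soy values lay clear of the 3 control values for 9 members (22.5%), beside 18.0% of all probes and 23.8% of those bright probes. Of these 9, 1 was higher (7.75% of all probes) and 8 were lower (10.3% of all probes). Of the 27310 bright probes, 3194 were higher and 3313 lower without overlap. With both directions pooled these shares were near those of the probes at large, whereas the lower members made up more, and the higher members fewer, of the 40 than of all probes. These shares were not tested. Cfb was the higher gene of the 9, and C2, C8b, F11, F2, F7, F13b, Serpinf2 and Serpind1 were the lower ones.

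The differences of clotting and complement genes are described apart, and the counts for each were added after the data were seen. Of the 20 clotting and fibrinolysis genes, 19 had a soy mean below the control mean, with a median log2 difference of -0.21, whereas 52.4% of all probes lay below 0 with a median of -0.010. For 6 of the 20 all soy arrays lay below all controls, beside 10.3% of all probes and 3313 of the 27310 bright probes. The arrays also differed in detection by diet: 37010, 36366 and 38163 of 59305 spots were well above background in control and 31308, 31988 and 32498 in soy, and the part of this in the differences of the members was not tested. Of the 20 complement genes, 7 lay below 0 and 13 above, with a median of 0.02 that had no settled sign: it was -0.065 without soy 3, -0.023 without control 1 and -0.039 when each array was shifted to its 75th percentile. The 24 other secreted hepatocyte proteins of a comparison list, which included albumin and apolipoproteins, had 14 members below 0 and a median of -0.044. These counts describe the lists and were not tested, and the members are not independent of each other. The complement count also moved with the scaling: 8 complement genes in place of 13 were higher when the shift to the 75th percentile replaced quantile normalization. It moved the median of all probes to 0.13, so that a difference near 0 has no fixed sign. Under it 18 of the 20 clotting genes still lay below 0, and 30 of the 40 members in place of 26.

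**Figure D1:**
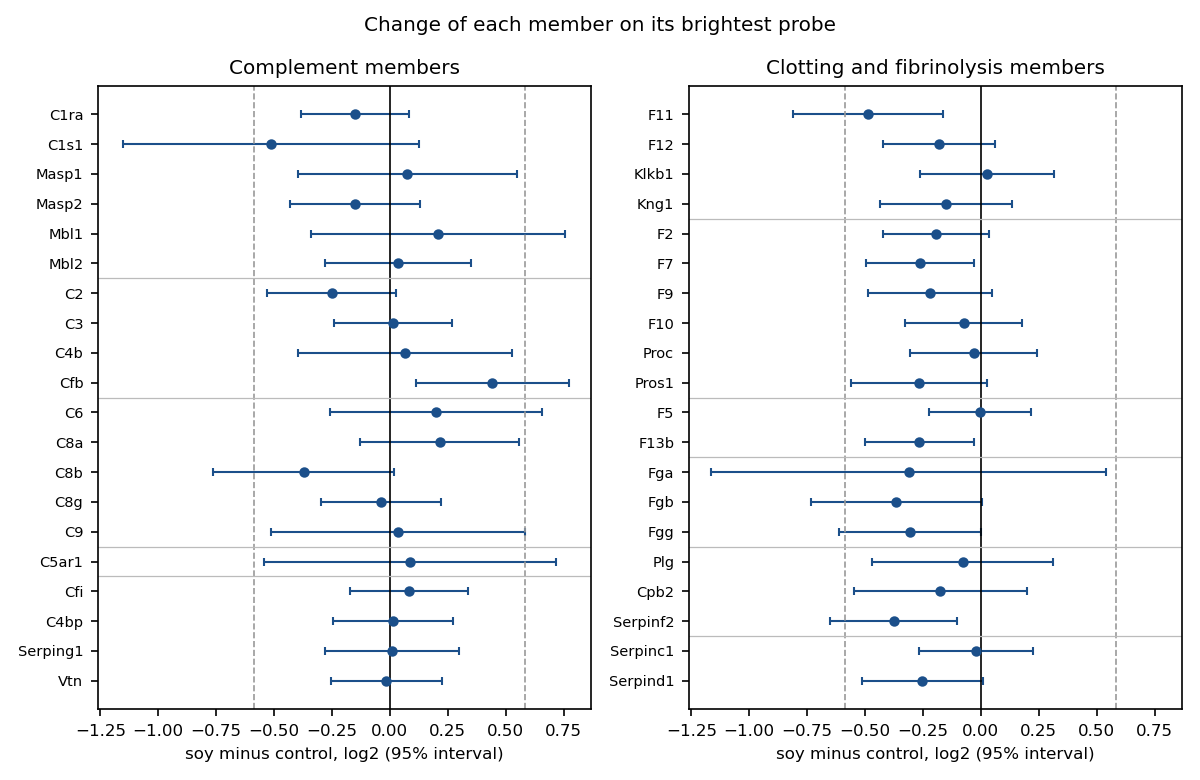
Soy minus control difference (log2) of each member on its brightest probe, with its 95% interval from limma; dashed lines mark a 1.5-fold change in either direction and grey lines separate the roles. The clotting genes lie left of 0 except Klkb1 (0.03), while the complement genes lie on both sides, from C1s1 (-0.51) to Cfb (0.44).

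The 95% interval of the difference lay within a 1.5-fold change in both directions for 29 of the 40 members, beside 76.5% of all probes. For the other 11 members the interval reached past 1.5-fold in at least 1 direction. RNA of whole liver was measured, so fewer cells of a type and less RNA per cell cannot be told apart in any of these values.

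The fibrinogen chains are the substrate of thrombin, and Fga, Fgb and Fgg encode the alpha, beta and gamma chain. All 3 had lower means in soy. Their genes lie next to each other on chromosome 3, and their promoters are shown because the 3 chains are made together as the parts of a single protein. The sequences run from 250 bases before to 50 bases after the RefSeq start of transcription (GRCm38.p6), at chr3:83025903-83026202 (plus strand) for Fga, chr3:83049814-83050113 (minus strand) for Fgb and chr3:83007474-83007773 (plus strand) for Fgg. Capitals mark the 6 letters GTTAAT of an HNF1 site, or ATTAAC on the other strand, and the 6 letters CTGGGA of the interleukin-6 response element, or TCCCAG on the other strand.
Fga: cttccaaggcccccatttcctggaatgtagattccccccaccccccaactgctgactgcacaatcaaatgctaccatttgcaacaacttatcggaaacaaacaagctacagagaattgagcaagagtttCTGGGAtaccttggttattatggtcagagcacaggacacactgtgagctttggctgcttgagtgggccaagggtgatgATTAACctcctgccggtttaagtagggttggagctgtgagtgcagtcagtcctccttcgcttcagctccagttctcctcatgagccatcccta
Fgb: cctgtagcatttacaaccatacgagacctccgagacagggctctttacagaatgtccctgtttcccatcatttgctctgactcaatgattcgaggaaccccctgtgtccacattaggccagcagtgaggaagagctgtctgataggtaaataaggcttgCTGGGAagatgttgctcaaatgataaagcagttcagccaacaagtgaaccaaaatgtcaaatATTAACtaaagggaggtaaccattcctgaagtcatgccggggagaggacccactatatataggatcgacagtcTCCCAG
Fgg: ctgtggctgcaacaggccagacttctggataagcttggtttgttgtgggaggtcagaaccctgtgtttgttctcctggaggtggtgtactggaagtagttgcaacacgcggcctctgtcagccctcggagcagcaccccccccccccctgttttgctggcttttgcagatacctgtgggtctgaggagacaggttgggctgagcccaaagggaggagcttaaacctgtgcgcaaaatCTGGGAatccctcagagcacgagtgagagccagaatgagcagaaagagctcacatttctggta
Counted from the start of transcription, CTGGGA began at position -121 in Fga, -91 in Fgb and -13 in Fgg. ATTAAC began at position -43 in Fga and -29 in Fgb, and Fgb held TCCCAG at position 44 as well. The 2 letter strings do not overlap each other in these windows. Of 32851 promoters of the same length in the RefSeq table, 7.10% held the HNF1 letters and 31.8% the interleukin-6 letters on either strand. A promoter was listed for 31 of the 40 members, 33 in all, of which 9 held the HNF1 letters (27.3%) and 19 the interleukin-6 letters (57.6%). A match of letters is a description of the sequence and not a binding site.

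Fgb (NM_181849) measured 18.00, 18.28 and 18.39 on control arrays 1 to 3 and 17.78, 17.66 and 18.13 on soy arrays 1 to 3. Soy 1 and soy 2 lay below all controls, while soy 3 lay above control 1, so the groups overlapped. The log2 difference was -0.37 (SE 0.16, n = 3 per group, limma adjusted p = 0.439), and it was -0.36 within slide 1 and -0.26 within slide 3.

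Fgg (NM_133862) measured 18.40, 18.51 and 18.59 in control and 18.09, 18.05 and 18.44 in soy. The arrays had the same order as for Fgb, and again soy 3 alone reached into the control range. The difference was -0.31 (SE 0.13, limma adjusted p = 0.434), with -0.36 within slide 1 and -0.16 within slide 3.

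Fga (NM_010196) has a pair of probes under the same accession, and they differed. The brighter one measured 14.94, 15.97 and 15.87 in control and 14.57, 15.78 and 15.49 in soy. Control 1 and soy 1 were low, while control 2, on the same slide, was the highest array, and the groups overlapped widely. Its difference was -0.31 (SE 0.37, limma adjusted p = 0.795), within slide 1 -0.89 and within slide 3 -0.37, and with an array left out it ran from -0.62 (without control 1) to 0.041 (without soy 1). The dimmer probe measured 14.44, 14.35 and 14.49 in control and 13.31, 13.30 and 13.87 in soy. Here all soy arrays lay below all controls, and control 1 did not stand apart. Its difference was -0.93, a fold of 0.524 (SE 0.16, limma adjusted p = 0.0756), which was the smallest adjusted p of any member probe and still above the threshold. Why the probes of Fga differ was not tested.

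**Figure D2:**
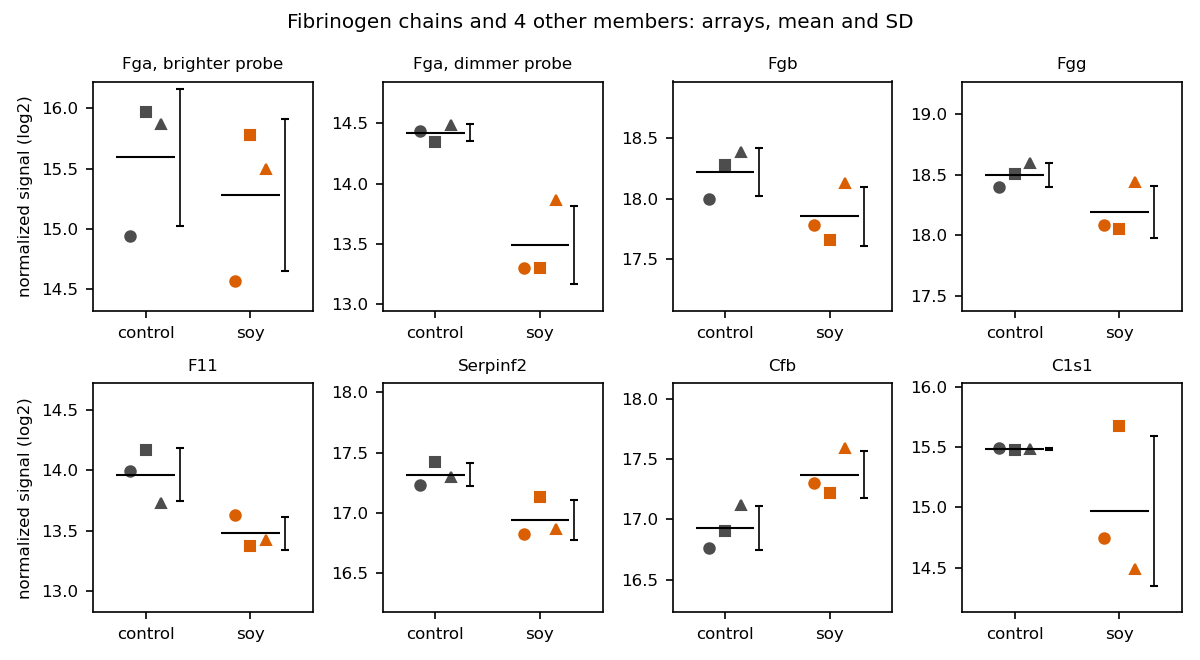
Normalized level (log2) of the fibrinogen chains and of F11, Serpinf2, Cfb and C1s1 on each array (circle, square and triangle for replicates 1, 2 and 3), with the group mean as a line and its SD as a bar beside it; each panel has its own axis. The dimmer Fga probe, F11 and Serpinf2 have every soy array below every control array, Cfb has every soy array above, and C1s1 has soy 2 (15.67) above the controls and soy 1 and soy 3 below them.

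The contact system starts clotting on charged surfaces. F11 (factor XI, NM_028066), the protease that activates factor IX, measured 13.99, 14.17 and 13.73 in control and 13.63, 13.38 and 13.43 in soy. All soy arrays lay below all controls, although soy 1 and control 3 lay close together. The difference was -0.49, a fold of 0.713 (SE 0.14, limma adjusted p = 0.232), which was the smallest adjusted p among the brightest probes of the members, with -0.45 within slide 1 and -0.31 within slide 3. F12 (factor XII) differed by -0.18 (SE 0.10) and Kng1, which encodes the kininogens, by -0.15 (SE 0.12). All 3 probes of Kng1 were lower in soy, but the mouse has a close copy, Kng2, whose RNA the probes may share, so its level is uncertain. Klkb1 (plasma prekallikrein) was the only clotting gene with a higher soy mean, at 0.03 (SE 0.12).

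The vitamin K dependent proteins, which need gamma-carboxylation to bind membranes, all had lower means in soy, 6 of 6. Pros1 (protein S, NM_011173), the cofactor of activated protein C, had the largest difference among them. It measured 13.66, 13.86 and 13.74 in control and 13.48, 13.29 and 13.68 in soy. Soy 3 lay just above control 1, so the groups overlapped. The difference was -0.27 (SE 0.13, limma adjusted p = 0.476), with -0.28 within slide 1, -0.060 within slide 3 and -0.17 without soy 2, and the second probe gave -0.24. F7 (factor VII), which starts clotting with tissue factor, measured 12.43, 12.64 and 12.59 in control and 12.25, 12.34 and 12.28 in soy, without overlap. Its difference was -0.26 (SE 0.10, limma adjusted p = 0.380). F2 (prothrombin) measured 18.14, 18.01 and 17.96 in control and 17.90, 17.79 and 17.83 in soy, also without overlap, with a difference of -0.20 (SE 0.10, limma adjusted p = 0.507). F9 (factor IX) differed by -0.22, F10 (factor X) by -0.074 and Proc (protein C) by -0.031, each with overlapping groups.

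Of the other clotting factors, F13b (NM_031164), the carrier subunit of the fibrin-crosslinking factor XIII, measured 13.86, 13.85 and 13.81 in control and 13.67, 13.44 and 13.62 in soy. The controls lay very close together, with an SD of 0.029, and all soy arrays were below them. The difference was -0.27 (SE 0.10, limma adjusted p = 0.377), with -0.19 within both slide 1 and slide 3. F5 (factor V), the cofactor of factor Xa, differed by -0.0047 (95% interval -0.22 to 0.21), so that its level was bounded more narrowly than that of any other member.

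Within the plasmin system, Serpinf2 (alpha-2-antiplasmin, NM_008878), the main inhibitor of plasmin, measured 17.24, 17.42 and 17.30 in control and 16.83, 17.13 and 16.87 in soy. All soy arrays lay below all controls, with soy 2 the nearest. The difference was -0.38, a fold of 0.770 (SE 0.12, limma adjusted p = 0.282), with -0.50 within slide 1 and -0.43 within slide 3. Cpb2, a carboxypeptidase that slows fibrinolysis, differed by -0.17 and Plg (plasminogen) by -0.078, with overlap in both. Serpind1 (heparin cofactor II, NM_008223), a thrombin inhibitor, measured 16.51, 16.32 and 16.35 in control and 15.99, 16.17 and 16.25 in soy, without overlap. Its difference was -0.25 (SE 0.11, limma adjusted p = 0.449), with -0.42 within slide 1 and -0.10 within slide 3. Serpinc1 (antithrombin), the main inhibitor of thrombin and factor Xa, differed by -0.020 (95% interval -0.27 to 0.23).

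Among the complement proteases and recognition proteins, 3 genes had a higher and 3 a lower mean. C1s1 (NM_144938), the C1 protease that cleaves C4 and C2, had the largest difference of all 40 members and an uneven soy group (SD 0.62). It measured 15.49, 15.47 and 15.48 in control and 14.75, 15.67 and 14.49 in soy. Soy 1 and soy 3 were far below the controls and soy 2 was above them. The difference was -0.51 (SE 0.28, limma adjusted p = 0.538), with -0.74 within slide 1 and -0.99 within slide 3, and it was -0.27 without soy 3 and -0.87 without soy 2. C1s2, the near-identical copy of C1s1, gave the same order of soy arrays, 14.70, 15.45 and 14.44, against 15.59, 15.32 and 15.37 in control, and the signals of the copies may not be separate. C1ra, the protease that activates C1s, differed by -0.15 (SE 0.10) and also has a close copy, C1rb, which differed by 0.37 (SE 0.20, limma adjusted p = 0.530). Masp1 and Masp2, the proteases of the lectin pathway, differed by 0.075 and -0.15, and Masp1 was the only member whose probes differed in sign, the dimmer one being well above background on no soy array. The mannose-binding lectins Mbl1 and Mbl2 differed by 0.21 and 0.034, and Mbl1 was low on control 1 (12.96, against 13.67 and 13.83 on the other controls).

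Of the components of the C3 and C5 convertases, Cfb (factor B, NM_008198), the protease of the alternative pathway, had the largest positive difference of any member. It measured 16.76, 16.90 and 17.12 in control and 17.30, 17.22 and 17.59 in soy. All soy arrays lay above all controls. The difference was 0.44, a fold of 1.36 (SE 0.14, limma adjusted p = 0.292), with 0.47 within slide 1 and 0.47 within slide 3, and its second probe also gave 0.44 (limma adjusted p = 0.309). C2, the protease of the classical and lectin pathways, measured 15.61, 15.29 and 15.26 in control and 15.12, 15.17 and 15.11 in soy, with all soy arrays lower. Its difference was -0.25 (SE 0.12, limma adjusted p = 0.479). C3, the central component, differed by 0.012 (95% interval -0.24 to 0.27), and C4b by 0.064 (95% interval -0.40 to 0.53), where the level of C4b is uncertain because the mouse has a near-identical copy.

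Among the terminal components, which form the membrane pore, C8b (NM_133882) measured 15.49, 15.52 and 15.93 in control and 15.01, 15.36 and 15.46 in soy. The groups did not overlap, but soy 3 and control 1 nearly met. The difference was -0.37 (SE 0.17, limma adjusted p = 0.459), with -0.50 within slide 1 and -0.47 within slide 3, and its second probe gave -0.46 (limma adjusted p = 0.271) without overlap. Without control 3 the difference of the brighter probe was -0.23, and without soy 1 it was -0.24. C8a, the chain that forms the pore with C8b, differed by 0.21 (SE 0.15, limma adjusted p = 0.638), in the opposite direction, and its second probe by 0.56 (limma adjusted p = 0.338). The groups of C8a overlapped, and no test of the difference between the 2 chains was made. C8g, C6 and C9 differed by -0.038, 0.20 and 0.035, with overlap in each.

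C5ar1 (NM_001173550), the receptor for the C5a fragment that is found on myeloid cells, was the dimmest member and was well above background on 3 control and 2 soy arrays. It measured 7.64, 6.99 and 6.94 in control and 6.75, 7.41 and 7.67 in soy. High and low arrays occurred in both groups. The difference was 0.085 (SE 0.27, limma adjusted p = 0.932), but it was -0.57 within slide 1 and 0.73 within slide 3, and it was -0.011 with slide as a block, so it had no settled direction.

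The complement regulators had the smallest differences of the roles. Cfi (factor I, NM_007686), which cleaves C3b and C4b, measured 16.76, 16.52 and 16.63 in control and 16.63, 16.69 and 16.84 in soy. The groups overlapped, and the difference was 0.083 (SE 0.11, limma adjusted p = 0.821), with -0.016 within slide 1 and 0.21 within slide 3, and it ran from 0.023 (without soy 3) to 0.14 (without control 1) with an array left out. C4bp, the cofactor of factor I for C4b, differed by 0.014, and Vtn (vitronectin), which blocks the terminal pore, by -0.015. Serping1 (the C1 inhibitor) differed by 0.0096 (95% interval -0.28 to 0.30), but from only 2 control values, since its spot on control 2 was an outlier and was left out.

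The arrays also differed among themselves within the groups. Each member's level was taken as a difference from its mean over the 6 arrays, and medians were taken over the 20 clotting genes. They were 0.063, 0.063 and 0.107 in control and -0.168, -0.149 and 0.045 in soy. Soy 3 thus lay near the controls 1 and 2, and the lower clotting medians came from soy 1 and soy 2. Without soy 3, the median clotting difference was -0.27, and without soy 1 it was -0.17. Within slide 1, 19 of the 20 clotting genes were lower on soy 1 than in the controls, and within slide 3, 15 of 20 were lower on soy 3 than on control 3. For all 40 members, 24 had the same sign within both slides, beside 59.0% of all probes.

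**Figure D3:**
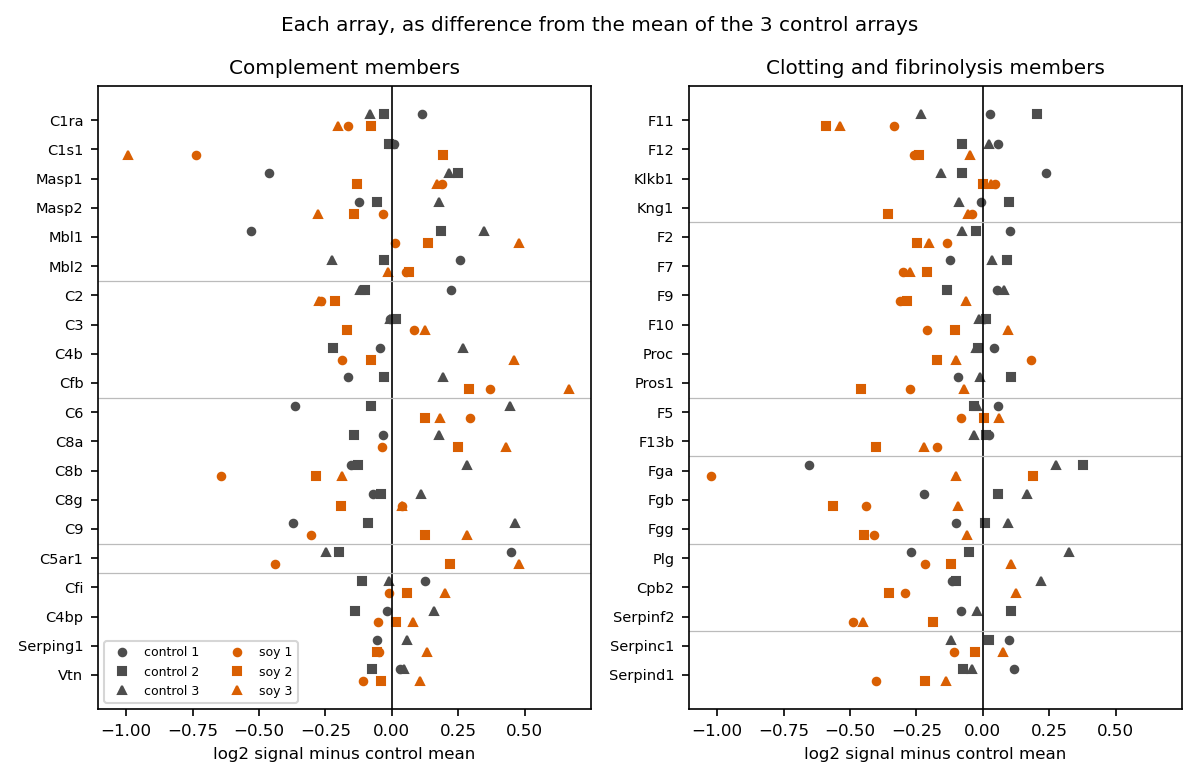
Level of each member on each array as a difference (log2) from the mean of the control arrays, with control in grey and soy in orange and a shape for each replicate; grey lines separate the roles. The soy 1 circles and soy 2 squares lie left of 0 for most clotting genes, soy 3 triangles lie nearer to 0, and C1s1 and the brighter Fga probe show the widest spread.

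The spread between mice was also compared with that of other acute phase genes. The median SD within a group was 0.14 for the members, 0.15 for all probes and 0.49 for the 16 acute phase genes of a separate list. A range over the 6 arrays above 1 was found for 3 of the 40 members, C1s1 (1.18), Mbl1 (1.005) and Fga (1.40), beside 9.09% of all probes, and for 11 of the 16 acute phase genes. Saa1 (serum amyloid A, a strongly induced acute phase protein) measured 16.43, 17.14 and 16.63 in control and 13.99, 16.16 and 18.19 in soy. The soy mice thus spanned a range of 4.20, with soy 1 and soy 2 below and soy 3 above all controls, and Saa2 and Lcn2 had the same order. C3, Fgb and Fgg were also highest on soy 3 within the soy group, but over much smaller ranges. Not all members were: the brighter Fga probe (15.78) and C1s1 (15.67) were highest on soy 2. Whether the order of C3, Fgb and Fgg shares a source with Saa1 was not tested.

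**Figure D4:**
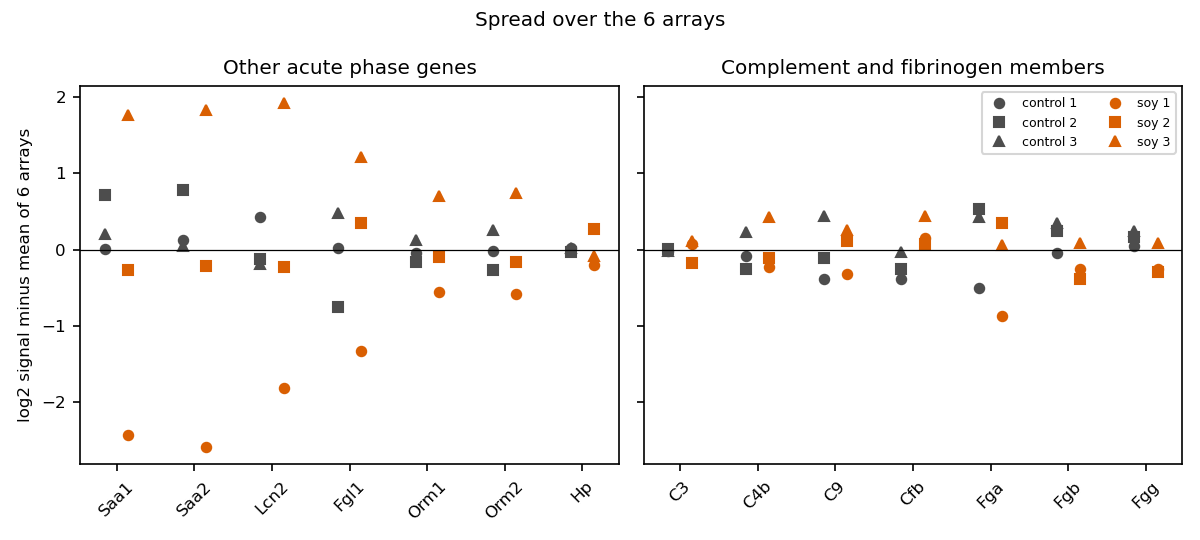
Difference of each array (log2) from the mean of the 6 arrays for 7 other acute phase genes (left) and 7 complement and fibrinogen genes (right), on the same axis. Saa1, Saa2 and Lcn2 spread over 4.20, 4.42 and 3.73 with soy 1 lowest and soy 3 highest, whereas the member with the widest spread, Fga, covers 1.40.

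Other genes of the same systems were taken from lists and read by the same thresholds. Of 25 further complement genes, 0 passed in limma, and 3 (0 higher, 3 lower) had an unadjusted p under 0.05, beside 11.5% of all probes. Of the 25, 11 had a lower and 14 a higher mean in soy, and the median was 0.02, as for the complement members. Of 27 further clotting and fibrinolysis genes, 0 passed in limma, and 7 (1 higher, 6 lower) had an unadjusted p under 0.05, beside 11.5% of all probes. A lower mean was found for 18 of the 27 (52.4% of all probes), with a median of -0.12. The lowest difference of the 27, named after its values were seen, was that of Thbd (thrombomodulin, the endothelial receptor that turns thrombin to the activation of protein C). It measured 8.72, 9.10 and 9.55 in control and 8.02, 7.85 and 8.16 in soy. All soy arrays lay below all controls, with a difference of -1.11 (SE 0.21, limma adjusted p = 0.0867). Of 13 hepatocyte transcription factors, 0 passed in limma and 4 (1 higher, 3 lower) had an unadjusted p under 0.05, beside 11.5% of all probes and 18.1% of the bright probes.

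Hepatocyte markers identified the tissue, with Serpina1a the most abundant at 18.96 to 19.06 in control and 18.97 to 19.06 in soy. Of the 8 hepatocyte markers, 5 had a lower and 3 a higher mean in soy, from -0.76 to 0.46, and 0 passed in limma, with 3 (1 higher, 2 lower) at an unadjusted p under 0.05, beside 11.5% of all probes. Their summed linear signal was 1757079, 1794245 and 1708742 in control and 1746001, 1702026 and 1622741 in soy. Of 11 Kupffer cell and macrophage markers, 10 had a higher mean in soy and 0 passed in limma, with none at an unadjusted p under 0.05. Their summed signal was 47009, 65753 and 79239 in control and 58782, 70630 and 86107 in soy, so that the groups overlapped, and the most abundant, Cd5l, differed by 0.45 (SE 0.24, limma adjusted p = 0.538). For the other marker lists 0 genes passed in limma as well, with 1 stellate and 1 platelet marker at an unadjusted p under 0.05. Higher means in soy were found for 4 of 7 neutrophil and monocyte (median 0.12), 6 of 9 liver endothelial (0.10), 2 of 7 stellate (-0.083), 3 of 6 cholangiocyte (-0.012), 2 of 7 platelet (-0.093) and 4 of 5 red cell markers (0.20). Csf3r was the most abundant of the neutrophil and monocyte markers (0.15), Clec4g of the liver endothelial (0.20), Dcn of the stellate (-0.083), Spp1 of the cholangiocyte (0.15), Itgb3 of the platelet (-0.78, the lowest of that list) and Hba-a1 of the red cell markers (0.26), each given with its log2 difference. The summed red cell signal was highest on soy 2, at 362298, against 165844 and 197273 on the other soy arrays. Within slide 1, 4 of the 5 red cell markers were lower in soy (median -0.11), and within slide 3 also 4 (median -0.37). Their direction was thus not settled. The part of these cell types in the differences of the members was not tested.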

How the data were processed

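Total RNA from 6 livers was hybridized to 1-colour arrays. Per the file headers, the authors deposited Feature Extraction 11.5.1.1 output, in which the median intensity of a spot and of the background around it is uncorrected and unscaled. Its processed signal, as deposited, is an intensity with background and spatial trend subtracted. The authors also deposited a log2 table of these arrays, whose columns share their quantiles. The normalization is not given in the sources used here, so the median intensities were corrected with normexp (offset 50), quantile normalized and log2 transformed. Outlier spots were dropped, and replicate spots of 1 probe averaged.

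Soy was compared with control in limma 3.58.1 (lmFit, eBayes; R 4.3.3) over 56605 probes, with Benjamini-Hochberg adjustment. The fit was tried on simulated data with independent noise and with planted differences larger than that of any member probe. Smaller differences and slides were not simulated. Because the array annotation used mm9, symbols were looked up by RefSeq accession in GRCm38.p6, which named 58.3% of the probes. Slides came from the file headers. Tables and plots were made with Python 3.11.15, pandas 2.3.3 and matplotlib 3.10.9.

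The members and lists were chosen with earlier results of these data known. The genes given in full were set by a rule: members with a passing probe, the 8 largest differences, and the largest difference in each of 11 roles. C2, F2, F7, C1s2, C1rb, Thbd, Saa1 and the genes named without full values were added after their values were seen. Of the 5 other lists and 8 marker lists, written from general knowledge, 0 genes passed, so the rule named only the most abundant markers. Ly6g and Hbb-bs could not be named on the array.

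As alternatives, the background was left uncorrected or the offset set to 16, the processed signal or the deposited log2 values were the input, and a shift to the 75th percentile or cyclic loess replaced quantile normalization. Further ones tested only probes above background, kept outlier spots, used eBayes with trend and robust settings, averaged the probes of a gene, blocked on replicate number or on slide, compared within a slide, dropped the fold limit, or left out 1 array.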

Additional observations from a re-analysis of the deposited data

How the results depend on the processing

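No member passed on its brightest probe, or on the mean of its probes, under any alternative that has a test. This held with or without the fold limit or with an array left out (0 to 0). The values within a slide have no test. Further probes were not read singly under the alternatives, among them the dimmer Fga probe (limma adjusted p = 0.0756 in the main fit). Of the 13 genes given in full, 10 kept their direction in all alternatives. Cfi turned to -0.0038 with the processed signal and -0.016 within slide 1. C5ar1 turned to -0.011 with slide as a block and -0.57 within slide 1, and ranged from -0.11 (without soy 3) to 0.36 (without soy 1) with an array left out, being also below 0 without control 2 (-0.013) and control 3 (-0.039). With an array left out, Fga ranged from -0.62 (without control 1) to 0.041 (without soy 1), and it was -0.67 with slide as a block and -0.89 within slide 1. The count of complement members higher in soy, added after seeing the data, was 13, but 8 with the processed signal and 8 with the 75th-percentile shift, and 7 (without soy 3) to 14 with an array left out. The clotting members lower in soy, also added after seeing the data, were 15 within slide 3, and ranged from 16 (without soy 1) to 20 with an array left out. With an array left out, the median difference of the members ranged from -0.149 (without control 1) to -0.052, the members higher in soy from 9 (without control 2 or soy 3) to 17, and the members without overlap from 11 to 16 (without control 1 or soy 3), where fewer arrays make overlap rarer. The cause of the other changes was not tested.

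Whether the replicate numbers pair the samples could not be told: the deviations of same-numbered arrays correlated at 0.12, -0.057 and 0.11. Arrays of unlike number ran from -0.20 (control 3 with soy 1) to 0.10 (control 3 with soy 2). The arrays numbered 1, and those numbered 3, also shared a slide. With the replicate block 0 members passed, the median was -0.076, 14 members were higher, and over all probes 43 passed higher and 35 lower in place of 118 and 80. With slide as a block these were 12 and 13, and with an offset of 16 they were 43 and 34. With the processed signal they were 11924 and 1214, and with the 75th-percentile shift 202 and 97. Among probes well above background they were 282 and 215. With an array left out they lay between 15 and 11 (without soy 2) and 107 and 101 (without control 3). Precision was limited most for Fga, C1s1 and C5ar1, whose intervals were wide, and C5ar1 lay near background.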
